A study of Homo sapiens with 6 samples.

Results

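Eicosanoids are signalling lipids made from arachidonic acid, a fatty acid stored in membrane phospholipids. A cytosolic phospholipase A2 releases it, and the cyclooxygenases PTGS1 and PTGS2 turn it into prostaglandin H2, which the synthases PTGES and PTGES2 convert to prostaglandin E2. Prostaglandin E2 acts on cells through receptors that include PTGER2 and PTGER4, and HPGD, 15-hydroxyprostaglandin dehydrogenase, inactivates it. On a parallel branch the 5-lipoxygenase ALOX5 starts leukotriene synthesis, helped by the membrane protein ALOX5AP, and ALOX15B is a lipoxygenase that oxidises the fatty acid at another carbon. In carcinomas PTGS2 is the inducible cyclooxygenase and PTGS1 is usually regarded as the constitutive one. The 10 genes PLA2G4A, PTGS1, PTGS2, PTGES, PTGES2, HPGD, PTGER2, PTGER4, ALOX5 and ALOX15B were taken by symbol from a table of 36459 gene symbols, and all 10 were found.

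RNA came from PC9 cells, a human lung adenocarcinoma line driven by mutant EGFR, and from PSPC9 cells, the drug-tolerant persister cells that remain of the same line after 6 days in 15 µM erlotinib, an EGFR kinase inhibitor. PC9 had 3 libraries from 3 independent cultures, and PSPC9 had 3 libraries into which 9 independently cultured replicates were pooled, so the spread between PSPC9 libraries is that of pools. Only one cell line was used, and erlotinib exposure and survival of it cannot be told apart. Each library held between 29476725 and 34893782 gene counts, and replicate libraries differed beyond sampling noise. Levels are given as CPM, gene counts brought to a common library total with TMM scaling, as mean ± SD with n = 3 per condition. Of 8 epithelial markers 7 were above 1 CPM in at least 1 library, and the lung lineage factor NKX2-1 was at or near 0 in all 6, with at most 0.0343 CPM.

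The 10 eicosanoid genes did not move in 1 direction between PC9 and PSPC9. The inducible cyclooxygenase PTGS2 was 3.63-fold higher in PSPC9 and the constitutive PTGS1 7.17-fold lower. ALOX5 was 5.82-fold lower. PLA2G4A, PTGES, PTGES2 and PTGER4 were higher by 1.18-fold to 1.36-fold. Of the 10 genes, 8 passed the filter on low counts and 7 were called by edgeR's quasi-likelihood test at a Benjamini-Hochberg adjusted p under 0.01, 5 higher and 2 lower. This comparison called 56.8% of all 14626 tested genes, 28.7% as higher and 28.1% as lower, so a call by itself sets none of these genes apart. A fold change above 2 by edgeR's glmTreat, called in 5.72% of the tested genes, was called for PTGS2, PTGS1 and ALOX5. The 6 libraries of the tested eicosanoid genes did not overlap between conditions in 8 of 8 cases, against 71.3% of all tested genes. PTGS1 passed the filter only through its PC9 level, which favoured its call as lower. The counts above that include it are therefore descriptive. In bulk RNA, a change in the share of cells that express a gene and a change in RNA per cell cannot be told apart.

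**Figure D1:**
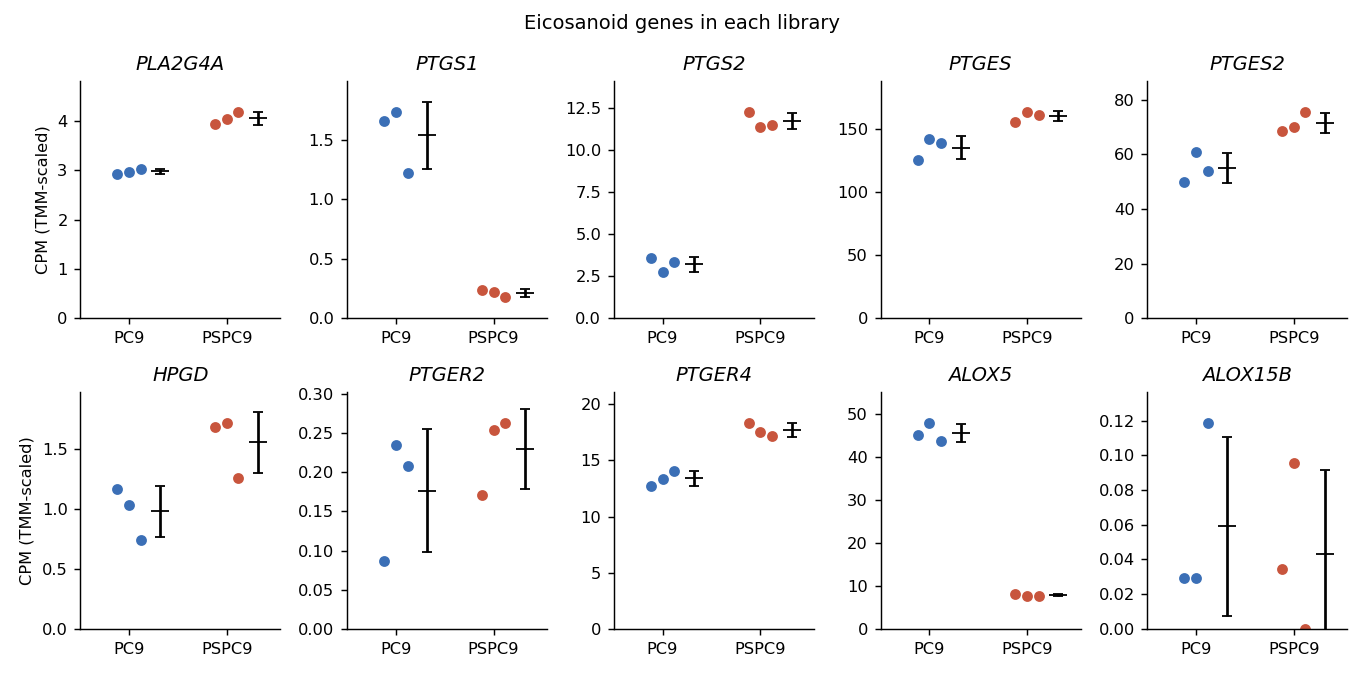
Each panel shows one gene, with TMM-scaled CPM on the vertical axis starting at 0, one point per library (blue PC9, red PSPC9) and the mean ± SD of 3 libraries as a bar beside the points. PTGS2 lay at 2.73 to 3.60 CPM in PC9 and at 11.4 to 12.3 CPM in PSPC9, while ALOX5 fell from at least 43.8 to at most 8.05 CPM, and the points of PTGER2 and ALOX15B overlap.

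Among the 8 tested members of the set, the cyclooxygenases and ALOX5 changed most. PTGS2 (ENSG00000073756, chr1:186671791-186680922, minus strand, GRCh38) had 3.60, 2.73 and 3.33 CPM in PC9 libraries 1, 2 and 3. In PSPC9 libraries 1, 2 and 3 it had 12.3, 11.4 and 11.5 CPM. Every PSPC9 library was above every PC9 library. The means were 3.22 ± 0.445 and 11.7 ± 0.482 CPM, a log2 fold change of 1.86 (SE 0.105, adjusted p = 6.27e-08, edgeR). PTGS1 (ENSG00000095303, chr9:122370530-122395703, plus strand) had counts of 57, 59 and 41 in PC9 and of 7, 7 and 6 in PSPC9. That made 1.66, 1.73 and 1.22 CPM in PC9 and 0.240, 0.222 and 0.176 CPM in PSPC9. PTGS1 was low in PC9 and close to the limit of detection in PSPC9, with no overlap. Its means were 1.54 ± 0.278 and 0.213 ± 0.0332 CPM, a log2 fold change of -2.84 (SE 0.284, adjusted p = 5.95e-06, edgeR). Because the filter admitted PTGS1 only through PC9, where it was high, this p-value is not taken as support.

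PTGS2 and PTGS1 make the same product from the same substrate, so their ratio within a library was taken. On the log2 CPM scale with a prior count of 2, PTGS2 exceeded PTGS1 by 1.09, 0.64 and 1.41 in the PC9 libraries and by 5.36, 5.33 and 5.61 in the PSPC9 libraries. The mean difference was 1.05 ± 0.386 in PC9 and 5.43 ± 0.154 in PSPC9, so the balance moved by 4.39 towards PTGS2. The PSPC9 differences rest on the 6 or 7 counts of PTGS1 in each library. An exact two-sided permutation test gave p = 0.1, the smallest p that 3 against 3 libraries allow. Since each gene alone separated the conditions, in opposite directions, this p adds no support. Per transcript length, where genes can be compared, PTGS2 transcripts were 1.78, 1.29 and 2.23 times as abundant as PTGS1 transcripts in PC9 and 41.8, 41.8 and 53.5 times in PSPC9. Transcripts of known length held only 64.3% of the PTGS1 count in PC9 and 80% in PSPC9. Which cyclooxygenase was higher in PC9 therefore cannot be read from these ratios.

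The 250 bases upstream of the start sites of both cyclooxygenase genes are shown because the genes moved in opposite directions. They are RefSeq sequences of GRCh38, 5′ to 3′ on the gene's strand, with matches to any of 8 searched motifs in capitals. PTGS2 has one window, chr1:186680424-186680673 on the minus strand, of which 73 bases overlap an exon of the antisense RNA PACERR. This window lies upstream of the RefSeq start site but inside the PTGS2 span given above. PTGS1 has a first window, chr9:122370283-122370532 on the plus strand, and a second one, chr9:122375052-122375301, that lies inside the gene and overlaps no annotated exon.
PTGS2: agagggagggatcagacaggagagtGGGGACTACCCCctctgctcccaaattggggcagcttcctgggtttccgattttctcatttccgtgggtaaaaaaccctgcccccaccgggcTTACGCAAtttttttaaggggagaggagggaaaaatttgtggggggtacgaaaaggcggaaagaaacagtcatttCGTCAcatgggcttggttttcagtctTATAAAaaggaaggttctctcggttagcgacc
PTGS1, first start site: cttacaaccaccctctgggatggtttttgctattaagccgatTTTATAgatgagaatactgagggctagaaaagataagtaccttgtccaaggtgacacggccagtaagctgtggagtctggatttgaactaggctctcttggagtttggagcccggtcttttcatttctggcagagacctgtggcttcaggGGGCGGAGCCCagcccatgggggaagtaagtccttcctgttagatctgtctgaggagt
PTGS1, second start site: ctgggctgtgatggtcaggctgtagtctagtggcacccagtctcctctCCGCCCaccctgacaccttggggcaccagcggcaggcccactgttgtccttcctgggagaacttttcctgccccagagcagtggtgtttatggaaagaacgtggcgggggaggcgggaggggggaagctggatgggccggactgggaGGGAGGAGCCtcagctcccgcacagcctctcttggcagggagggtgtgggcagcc

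The PTGS2 window holds TATAAA, the letters of a TATA box, 32 to 27 bases before the start site, and the same letters on either strand occur in 10.7% of 35116 RefSeq windows of this length. CGTCA, the reverse complement of the cyclic AMP half-site TGACG, stands 58 to 54 bases before the start, a motif found in 21.2% of windows. TTACGCAA, a match on the other strand to the C/EBP motif TTGCGNAA, stands 133 to 126 bases before it, and 0.752% of windows hold that motif. The capitals from 225 to 214 are 3 overlapping matches to the outer letters of an NF-kappa B site, GGG and CC with 5 bases between them, which 54.4% of windows hold. In the first PTGS1 window TTTATA lies 208 to 203 bases before the start, and 2 overlapping matches to the NF-kappa B letters at 58 to 48 share bases with a GC box, GGGCGG, a motif of 42.6% of windows. The second PTGS1 window has a GC box on the other strand at 202 to 197 and a match to the NF-kappa B letters at 55 to 46. The other motifs searched on both strands were TGANTCA (AP-1, in 6.57% of windows), CACGTG (E-box, 6.34%) and TGATGNAA (amino acid response element, 3.14%), and none of these windows held them. The windows and motifs were chosen after the expression values were known.

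Upstream of the cyclooxygenases, PLA2G4A encodes the cytosolic phospholipase A2 that frees arachidonic acid. Its gene (ENSG00000116711, chr1:186828949-186988981, plus strand) starts 148 kb from the start of PTGS2 and runs in the opposite direction. PLA2G4A had 2.93, 2.97 and 3.03 CPM in PC9 and 3.94, 4.03 and 4.18 CPM in PSPC9. The libraries of a condition were close together and the conditions did not overlap. The log2 fold change was 0.45 (SE 0.107, adjusted p = 0.00351, edgeR). This call was lost in DESeq2 (adjusted p = 0.0269) and in edgeR without PC9 library 3 (0.0109), without PSPC9 library 2 (0.0111) or without PSPC9 library 3 (0.0179).

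Both prostaglandin E synthases were abundant and rose by less than the cyclooxygenase. PTGES (ENSG00000148344, chr9:129738331-129753042, minus strand), the inducible microsomal synthase, had 125, 142 and 139 CPM in PC9 and 156, 164 and 161 CPM in PSPC9. All 3 PSPC9 values exceeded the highest PC9 value, and the log2 fold change was 0.24 (SE 0.0492, adjusted p = 0.00113, edgeR). PTGES2 (ENSG00000148334, chr9:128120693-128128462, minus strand), a membrane-associated synthase, had 50.01, 60.8 and 53.9 CPM in PC9 and 68.5, 70.2 and 75.5 CPM in PSPC9. The conditions were again separate, with a log2 fold change of 0.38 (SE 0.0679, adjusted p = 0.000489, edgeR).

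HPGD (ENSG00000164120, chr4:174490175-174523154, minus strand), the enzyme that inactivates prostaglandin E2, did not pass the limit. It had 1.16, 1.03 and 0.743 CPM in PC9 and 1.68, 1.72 and 1.26 CPM in PSPC9, from 25 to 54 counts a library. Its log2 fold change was 0.66 (SE 0.224, adjusted p = 0.0232, edgeR). The libraries did not overlap, but the lowest PSPC9 library stood only a little above the highest PC9 library. Set against PTGES within each library, HPGD was lower by a log2 CPM difference of -6.68, -7.02 and -7.43 in PC9 and of -6.49, -6.52 and -6.93 in PSPC9. The means were -7.05 ± 0.379 and -6.65 ± 0.247, and the exact two-sided permutation p for their difference of 0.40 was 0.2, where 0.1 is the smallest possible.

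PTGER2 and PTGER4 are the prostaglandin E2 receptors that raise cyclic AMP, and of this pair PTGER4 had the higher level. PTGER4 (ENSG00000171522, chr5:40679915-40693735, plus strand) had 12.8, 13.4 and 14.1 CPM in PC9 and 18.4, 17.6 and 17.2 CPM in PSPC9. All PSPC9 libraries were higher, with a log2 fold change of 0.40 (SE 0.0629, adjusted p = 0.000192, edgeR). The gene lies within the span of TTC33 on the opposite strand. Whether their exons overlap was not checked, and strandedness was not given in the sources used here. Reads of any shared exon could therefore not be told apart. TTC33 went the other way, from 41.1 to 53.1 CPM in PC9 to 32.2 to 32.3 CPM in PSPC9 (log2 fold change -0.53, adjusted p = 0.000137, edgeR). PTGER2 (ENSG00000125384, chr14:52314305-52328598, plus strand) had only 3, 8 and 7 counts in PC9 and 5, 8 and 9 in PSPC9. It did not pass the filter, the conditions overlapped, and a difference was not detectable at this depth (log2 fold change 0.39, SE 0.535, adjusted p = 0.583 in edgeR without the filter).

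**Figure D2:**
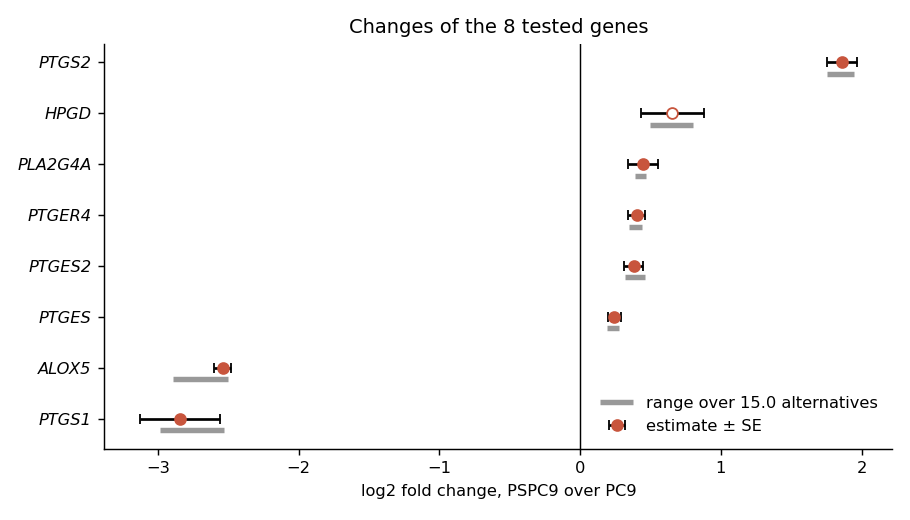
Points give the log2 fold change of PSPC9 over PC9 for the 8 tested genes with its SE as a bar, filled where the adjusted p was under 0.01 and open for HPGD, and the grey bars beneath span the values of 15 alternative analyses. PTGS2 stands at 1.86 and ALOX5 and PTGS1 at -2.54 and -2.84, and no grey bar reaches 0.

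On the leukotriene branch, ALOX5 (ENSG00000012779, chr10:45374176-45446119, plus strand) showed the firmest change of the 10 genes, rank 53 by p-value among the 14626 tested. It had 45.2, 48.0 and 43.8 CPM in PC9, from 1473 to 1635 counts a library. In PSPC9 it had 8.05, 7.75 and 7.75 CPM, from 235 to 265 counts. The drop was many times the spread between libraries, with means of 45.7 ± 2.18 and 7.85 ± 0.171 CPM and a log2 fold change of -2.54 (SE 0.0596, adjusted p = 1.02e-10, edgeR). ALOX15B (ENSG00000179593, chr17:8039034-8049134, plus strand) was near the floor, with 1, 1 and 4 counts in PC9 and 1, 3 and 0 in PSPC9, and was not tested. The 0 in PSPC9 library 3 allows up to 0.0878 CPM at a limit of 3 counts, which covers counting error only.

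ALOX5AP, which presents arachidonic acid to ALOX5, moved the opposite way. It lies outside the rule for naming genes because of its low mean level, and it was chosen after its values were seen. Its counts were 4, 6 and 7 in PC9 and 90, 122 and 120 in PSPC9, or 0.167 ± 0.0466 against 3.49 ± 0.397 CPM. The log2 fold change was 4.36, given without a test because of that choice, and the gene passed the filter only through its PSPC9 level. Per transcript length ALOX5AP stood at 0.00698, 0.00995 and 0.0129 of ALOX5 in PC9 and at 1.04, 1.36 and 1.23 of it in PSPC9. In PC9, then, ALOX5 transcripts far outnumbered those of its partner, and in PSPC9 the levels were close. Which of them was higher in PSPC9 cannot be read from these ratios, because transcripts of known length held only 69.1% of the ALOX5 count there.

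**Figure D3:**
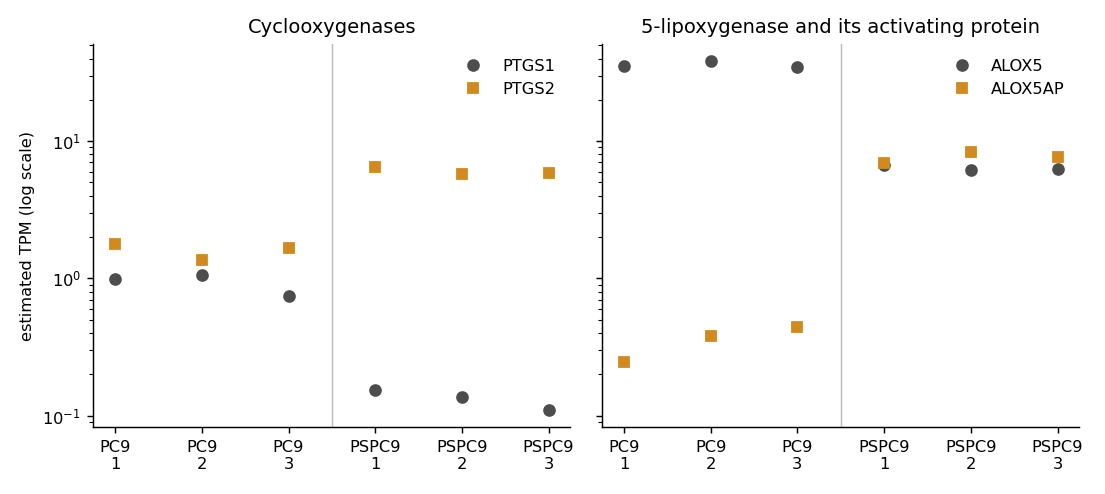
Estimated TPM, a level that allows for transcript length, is plotted on a log axis for each library, PTGS1 and PTGS2 on the left and ALOX5 and ALOX5AP on the right. PTGS2 over PTGS1 went from between 1.29 and 2.23 in PC9 to between 41.8 and 53.5 in PSPC9, and ALOX5AP over ALOX5 went from at most 0.0129 to between 1.04 and 1.36. Transcripts of known length held only 64.3% of the PTGS1 count in PC9 and 69.1% of the ALOX5 count in PSPC9.

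ALOX5 and ALOX5AP are known chiefly from leukocytes, so markers of other cell types were read beside them. The summed level of 8 leukocyte markers was 77.2 to 78.8 CPM in PC9 and 34.8 to 38.7 CPM in PSPC9. CD68, a lysosomal protein, made up 73.9 to 75.7 CPM of it in PC9 and 19.3 to 22.4 CPM in PSPC9. PTPRC, the pan-leukocyte antigen CD45, was at most 0.356 CPM in any library, and the T cell gene CD3E was at 0 in all 6. Most of the rest in PSPC9 came from ITGAM and CSF1R, for ITGAM rose from 0.930 to 1.46 CPM in PC9 to 9.80 to 11.2 CPM in PSPC9, and CSF1R from 0.411 to 0.505 CPM to 4.15 to 5.03 CPM, in the direction of ALOX5AP. Of 7 markers of mast cells and granulocytes 5 were at 0 throughout, among them TPSAB1 and CPA3, and their sum reached at most 0.238 CPM. Fibroblast markers summed to at most 11.0 CPM in PC9 and at least 27.4 CPM in PSPC9. Nearly all of that was COL1A1, at 10.0 to 10.6 CPM in PC9 and 26.3 to 29.8 CPM in PSPC9. PDGFRB also rose, from 0.291 to 0.475 CPM in PC9 to 0.699 to 1.46 CPM in PSPC9. COL3A1 was at 0 in all libraries, and COL1A2, DCN, LUM and PDGFRA were at most 0.191 CPM in any. Endothelial markers summed to at least 8.28 CPM in PC9 and at most 4.27 CPM in PSPC9. Most of that fall was PECAM1, from 3.92 to 4.66 CPM in PC9 to 0.117 to 0.286 CPM in PSPC9. The 8 epithelial markers summed to between 6430 and 6838 CPM in PC9 and between 4463 and 4617 CPM in PSPC9, but they went both ways, with 4 lower and 2 higher. The 2 that rose were CDH1, by 0.60 on the log2 scale, and EGFR, by 0.50. The part of these shifts in the eicosanoid results was not tested.

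Ordered by estimated TPM, a level that allows for transcript length, PTGES and PTGES2 led in both conditions, at means of 144 and 67.2 in PC9 and 176 and 90.4 in PSPC9. In PC9 they were followed by ALOX5 at 35.9, PTGER4 at 8.99, PLA2G4A at 1.93, PTGS2 at 1.60, HPGD at 1.20 and PTGS1 at 0.936, with PTGER2 at 0.135 and ALOX15B at 0.0413. The ranges of PTGS2 and HPGD overlapped, as did those of HPGD and PTGS1 and of PTGER2 and ALOX15B. In PSPC9 the order after the synthases was PTGER4 at 12.3, ALOX5 at 6.39, PTGS2 at 6.04, PLA2G4A at 2.72, HPGD at 1.97, PTGER2 at 0.180, PTGS1 at 0.134 and ALOX15B at 0.0310. There the range of ALOX5 over libraries overlapped that of PTGS2, at 6.71, 6.20 and 6.27 against 6.48, 5.76 and 5.89. Which of the pair was higher cannot be read, because transcripts of known length held only 69.1% of the ALOX5 count in PSPC9. PTGER2 overlapped PTGS1. These levels assume that unmatched ALOX5 and PTGS1 transcripts have the mean length of the matched ones.

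Transcripts gave a narrower view, since 19 transcripts of these genes passed the filter and 4 were called, where 7.80% of all 54499 tested transcripts were called. ALOX5-201 fell by 3.14 on the log2 scale (SE 0.332, adjusted p = 0.00224, edgeR), and its share of the ALOX5 gene count was 75.3% to 81.1% in PC9 and 27.9% to 66.8% in PSPC9. The lowest share was that of PSPC9 library 3. ALOX5-207 fell by 1.87 (SE 0.223, adjusted p = 0.00346, edgeR), with shares of 7.95% to 10.9% and 12.8% to 15.6%. Transcripts matched to the annotation held 88.2% of the ALOX5 count in PC9 but 69.1% in PSPC9, so the rest of that gene could not be assigned. PTGS2-201, the main coding transcript, rose by 1.70 (SE 0.185, adjusted p = 0.00250, edgeR) and held 93.0% of the PTGS2 count in PC9 and 84.5% in PSPC9. PTGS2-204, annotated as a target of nonsense-mediated decay, had shares of 7.0% and 12.9%, and its log2 fold change of 2.70 (SE 0.784) missed the limit at an adjusted p of 0.0723 in edgeR. For PTGS1-202, with 18 to 20 counts in PC9 and 0 to 3 in PSPC9, the adjusted p was 0.0560 in edgeR. PTGS2-204 and PTGS1-202 each passed the filter only through the condition in which it was high. PTGES-201, the main PTGES transcript at 93.2% to 96.1% of the gene count, was not called (log2 fold change 0.18, adjusted p = 0.105, edgeR), while the minor PTGES-202, at 3.9% to 6.8%, was (0.85, SE 0.112, adjusted p = 0.00491). In all, 22 transcripts held at least 10% of their gene's count in either condition, 11 of them were tested and 3 called. PTGES2-202 (log2 fold change 0.40, adjusted p = 0.035) and PTGER4-201 (0.39, adjusted p = 0.0168) missed the limit in edgeR, as did PLA2G4A-201 (0.42, adjusted p = 0.125), HPGD-202 (0.67, adjusted p = 0.511) and HPGD-208 (0.49, adjusted p = 0.815). The 11 not tested were PTGS1-201, PTGS1-203, PTGS1-206, PTGS1-208, HPGD-201, HPGD-204, HPGD-212, PTGER2-201, ALOX15B-201, ALOX15B-203 and ALOX15B-204.

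These transcript calls rested on all 6 libraries. Without PC9 library 1, 2 or 3 the number called was 2, 1 and 0, and without PSPC9 library 1, 2 or 3 it was 1, 0 and 1. Where 0 were called, 10 of 22 transcripts without PC9 library 3 and 9 of 21 without PSPC9 library 2 still had an unadjusted p under 0.05, against 10 of 19 with all libraries. DESeq2 called 8 of the 19.

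Around these genes, a list of 97 others of the arachidonic acid pathway was examined, of which 62 passed the filter. Of these, 20 were higher in PSPC9, 26 were lower and 16 were not called, 74.2% called against 56.8% of all tested genes. The median log2 fold change of the 62 was -0.07 and that of all tested genes -0.0061. Past a fold of 2 by glmTreat there were 10, 5 higher and 5 lower, or 16.1% of the 62 against 5.72% of all. Of those 10, ALOX5AP, PLA2G4C, SLCO2A1 and PTGDS passed the filter only through the condition in which they were high. PTGFR and LTC4S, called but not past that fold, did so too. The list was also chosen with earlier results of these data known, so these shares are descriptive.

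Among genes listed for the return of arachidonic acid to phospholipids, 8 were tested, 7 were lower and 1 was higher. Of all tested genes 28.7% were called higher and 28.1% lower, and the counts by role here and below are descriptive beside those shares. Of the lower ones, ACSL1, ACSL3, ACSL5 and MBOAT2 are not specific to arachidonic acid. LPCAT3, which loads it into membrane lipids, fell from 86.8 ± 2.16 to 34.9 ± 1.94 CPM (log2 fold change -1.31, SE 0.0491, adjusted p = 2.72e-09, edgeR). ACSL4, which activates it as its CoA ester, was the one that rose, from 164 ± 7.05 to 182 ± 1.87 CPM (0.15, SE 0.0397, adjusted p = 0.00708). The phospholipases A2 gave no common direction, with 3 higher, 2 lower and 6 not called among 11. PLA2G4C, among the 3, passed the filter only through its PSPC9 level. PLA2G15, the lysosomal enzyme, was at 9.24 ± 0.653 and 12.7 ± 0.557 CPM, and the calcium-independent PLA2G6 at 17.5 ± 1.68 and 7.58 ± 0.497 CPM in PC9 and PSPC9. Of 6 genes that control phospholipase A2 or PTGS2, 3 were lower, 1 higher and 2 not called. ANXA1, a protein that restrains phospholipase A2 activity, fell from 759 ± 17.7 to 308 ± 5.26 CPM (-1.30, SE 0.0345, adjusted p = 2.33e-10). ELAVL1, an RNA-binding protein known to stabilise PTGS2 mRNA, rose from 115 ± 1.67 to 142 ± 1.23 CPM (0.30, SE 0.0348, adjusted p = 1.75e-05).

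Of 8 tested prostanoid synthases 4 were lower, 1 higher and 3 not called. PTGDS, among the 4, passed the filter only through its PC9 level. AKR1C3, which makes prostaglandin F2 from other prostaglandins, fell from 1360 ± 23.5 to 672 ± 28.5 CPM (-1.02, SE 0.0386, adjusted p = 3.05e-09, edgeR), although its reads can be shared with the near-identical AKR1C1 and AKR1C2. AKR1B1, with the same activity, rose from 649.5 ± 28.3 to 757 ± 27.2 CPM (0.22). The genes of transport and breakdown were 2 higher, 3 lower and 1 not called of 6. SLCO2A1, among the 2 higher, passed the filter only through its PSPC9 level. ABCC4, which exports prostaglandins, rose from 27.4 ± 1.16 to 49.0 ± 1.71 CPM (0.84, SE 0.0503, adjusted p = 1.03e-07), and CBR3, a carbonyl reductase, fell from 15.1 ± 0.307 to 5.92 ± 0.564 CPM (-1.35). All 3 tested genes of the prostanoid receptor group were higher, of 8 listed, where 28.7% of all tested genes were called higher. PTGFR, with 4, 0 and 8 counts in PC9 and 26, 15 and 16 in PSPC9, passed the filter only through its PSPC9 level. PTGFRN, a membrane protein that negatively regulates the prostaglandin F receptor, rose from 177 ± 6.85 to 254 ± 1.24 CPM (0.52, SE 0.0378, adjusted p = 4.82e-07).

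Of the 8 tested lipoxygenases and partners 4 were higher, 3 lower and 1 not called. The 4 include ALOX5AP, and the 3 include LTC4S, with 24, 27 and 31 counts in PC9 and 12, 9 and 17 in PSPC9. Each passed the filter only through the condition in which it was high, so these counts are descriptive. LTA4H, which makes leukotriene B4, fell from 198 ± 4.53 to 107 ± 2.95 CPM (-0.89, SE 0.0382, adjusted p = 7.86e-09, edgeR), as ALOX5 did. COTL1, an actin-binding protein that also binds ALOX5, rose from 487 ± 24.6 to 799 ± 24.8 CPM (0.72, SE 0.0431, adjusted p = 1.08e-07). Of the 4 tested genes of leukotriene breakdown 3 were lower and 1 higher, where 28.1% of all tested genes were called lower and 28.7% higher. CYP4F3, a leukotriene B4 hydroxylase, fell from 48.1 ± 2.00 to 19.3 ± 0.496 CPM (-1.32), and GGT1, which trims leukotriene C4, rose from 36.9 ± 5.17 to 49.2 ± 0.0975 CPM (0.42). Both belong to families of near-identical genes between which reads can be split. Of 3 tested leukotriene and related receptors only LTB4R, the leukotriene B4 receptor, was called, at 2.28 ± 0.190 and 3.37 ± 0.224 CPM (0.56, SE 0.129, adjusted p = 0.00261). On the cytochrome P450 branch 3 of 5 were higher, 1 lower and 1 not called, with CYP1B1 up from 59.1 ± 1.36 to 240.3 ± 5.95 CPM (2.02, SE 0.0391, adjusted p = 2.65e-11) and the epoxide hydrolase EPHX1 down from 316 ± 7.97 to 232 ± 7.58 CPM (-0.45).

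**Figure D4:**
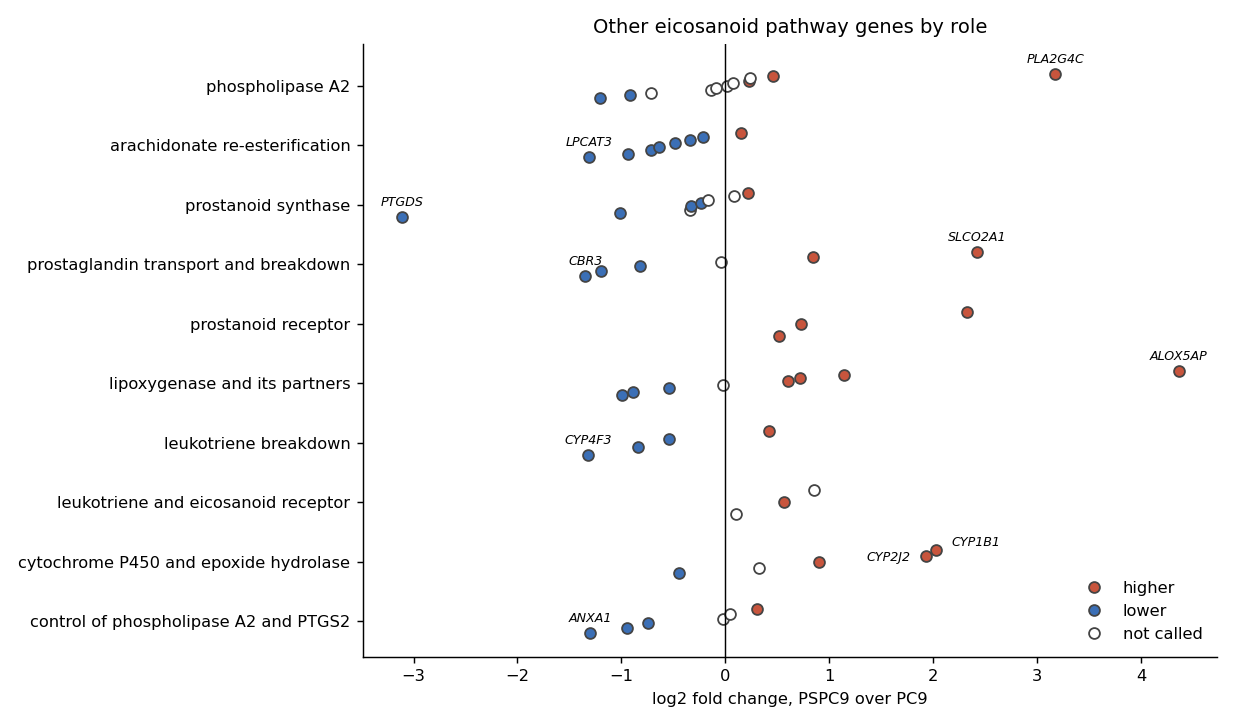
Each point is one of the 62 tested genes of the wider list, placed by its log2 fold change of PSPC9 over PC9 and grouped by role, red where called higher, blue where called lower and white where not called, with names for the 10 past a fold of 2. The 8 re-esterification genes sit to the left of 0 except for ACSL4, and ALOX5AP at 4.36 and PTGDS at -3.11 are the extremes.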

How the data were processed

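RNA-seq of 3 PC9 and 3 PSPC9 libraries was analysed. The authors made poly-A libraries and pseudoaligned paired-end reads with Kallisto (0.46.1 per the submitters' processing notes) to Ensembl transcripts of GRCh38.p13. What the authors deposited were Kallisto's estimated counts, rounded to whole numbers and not normalized, in a gene table and a transcript table. Genes passing edgeR's filterByExpr were normalized with TMM and tested with glmQLFit and glmQLFTest (edgeR 4.0.16, R 4.3.3), with Benjamini-Hochberg adjustment over all tested genes and a limit of 0.01. The SE is the log2 fold change divided by the square root of F. Libraries other than these 6, which the study's own fit also held, were not analysed here. The spread between libraries, at total counts of 29476725 to 34893782, sets the precision.

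Coordinates and transcripts are from GENCODE 44. Of 188753 transcripts 167067 were matched by identifier, with 95.8% of transcript counts. Estimated TPM values divide the gene count by the mean length of its matched transcripts, weighted by their counts, over 18611 genes, a choice made after transcripts were seen to miss part of the PTGS1 and ALOX5 counts. Of the 10 genes 8 had RefSeq promoter windows, 12 in all, and ALOX5 and ALOX15B had none.

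The members and lists were chosen with earlier results of these data known. Named genes are the 10 members and, for each role of the wider list, the called gene with the largest rise and the largest fall among those with a mean log2 CPM above 1 (prior count 2) and no overlap between conditions. Transcripts are named where they hold at least 10% of a member's count in either condition, and PTGES-202, a called transcript below that share, is named too. Scripts were tested on simulated data. There the transcript test missed many low-count transcripts, and the criterion for passing was restricted to higher counts after a first run. Alternatives were DESeq2 1.42.0, limma 3.58.1 (voom), other scalings, filters and limits, gene counts summed from transcripts, glmTreat, a replicate block and each library left out. Figures were drawn with matplotlib 3.10.9.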

Additional observations from a re-analysis of the deposited data

How the results depend on the processing

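No fold change of the 8 tested genes changed sign in any alternative. With glmTreat, 3 of the 10 members and 10 of the wider list were called in place of 7 and 46. In the other alternatives the members gave 6 to 8 calls and the wider list 38 to 49, with 6 to 7 and 38 to 43 when 1 library was left out. The log2 fold change ran from 1.75 to 1.95 for PTGS2, from -2.98 to -2.53 for PTGS1, from -2.89 to -2.50 for ALOX5, from 0.19 to 0.28 for PTGES, from 0.32 to 0.46 for PTGES2, from 0.35 to 0.44 for PTGER4 and from 0.49 to 0.80 for HPGD, which passed only at a limit of 0.05. The move of PTGS2 against PTGS1 ran from 4.02 to 4.63 and that of HPGD against PTGES from 0.20 to 0.58. Of all tested genes, glmTreat called 837 in place of 8307. Member transcripts called numbered 8 in DESeq2 and between 0 and 2 when 1 library was left out, and the cause was not tested.

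With the replicate number as a block, 7 members, 43 genes of the wider list and 0 member transcripts were called, and 9 of the 19 transcripts then had an unadjusted p under 0.05. Deviations of same-numbered libraries correlated at 0.124, 0.0236 and 0.0215 over 14626 genes, and not every library correlated best with its own number, so the numbers were not taken to pair the libraries. Genes with few counts (PTGER2, ALOX15B and PTGS1 in PSPC9) are limited by depth, and PSPC9 libraries are pools, so their spread understates that between cultures. p-values measure the spread between these libraries.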

Other observations

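The 3 genes of the wider list described first changed by more than 2-fold at levels too low for the naming rule. They were picked after their values were seen, so no test is given. All 3 passed the filter only through the condition in which they were high. PLA2G4C, a membrane-bound calcium-independent relative of PLA2G4A, had 8, 7 and 5 counts in PC9 and 43, 64 and 64 in PSPC9 (log2 fold change 3.17). SLCO2A1, the prostaglandin uptake transporter, had 6, 8 and 6 counts in PC9 and 36, 29 and 36 in PSPC9 (log2 fold change 2.42). PTGDS, a prostaglandin D2 synthase, went from 24, 23 and 21 counts to 0, 2 and 5 (log2 fold change -3.11).

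On the P450 branch, CYP2J2, an arachidonic acid epoxygenase, was at 2.99 ± 0.504 CPM in PC9 and 11.4 ± 0.530 CPM in PSPC9 (log2 fold change 1.93). ZFP36, which promotes decay of PTGS2 mRNA, was at 48.2 ± 3.74 CPM in PC9 and 24.9 ± 1.28 CPM in PSPC9 (log2 fold change -0.95). Both CYP2J2 and ZFP36 were likewise picked after their values were seen. No link between these genes and the 10 members was tested.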
